A study of Oryza sativa with 35 samples.

Results

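Of the 57258 rice probe sets on the Affymetrix Rice Genome Array, 705 (1.23%) had their highest level, by a wide margin, at the base of internode I, the uppermost segment of the rice stem, which carries the panicle. They were picked from the measured values themselves: the log2 signal was averaged within each of the 11 organ parts that had replicate arrays, and a probe set was kept when its mean at the internode base was at least 8 (256 on the linear scale) and at least 2 log2 units (4-fold) above the mean of each of the other 10 parts. The level at the internode base and its distance from the other parts are therefore the selection and are given below as a description, without a test. The platform annotation lists 518 of the 705, of which 514 point to 1 gene and 4 to several, while 187 are not listed and stay unnamed here. The 514 represent 469 genes, 40 of them with at least 2 selected probe sets, and 73 of these probe sets (62 genes) carry a gene name beyond a locus number.

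The samples came from Oryza sativa L. cv. Nipponbare plants in soil in an irrigated greenhouse with supplementary light, taken at heading, and total RNA was labelled by the One-Cycle procedure for 1-colour arrays. All groups share this cultivar and growth regime, and no treatment or mutant was part of the study. The basal part of internode I (InN I-bsl) had 3 arrays, as did its top (InN I-top), node I, node II, the top of the flag leaf sheath (FLS-top), the base, middle and tip of the flag leaf blade, the panicle branch and the flower before anthesis. Only 2 arrays represent the base of the flag leaf sheath (FLS-bsl). Intact blades of 3 leaves, counted downwards, had 1 array each (flag leaf, leaf 2, leaf 4), which makes 35 arrays in 14 groups. The repeats are labelled biological replicates, without a statement on separate plants, so a p-value here reflects the scatter among these arrays, and their small number limits the precision.

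A rice internode grows from its lower end: the cells of the base are the youngest, and tissue matures upwards from there, so base and top of one internode represent different stages of the same organ. Stem fibres and xylem lay down a secondary wall once they stop growing. That wall is made of cellulose from dedicated cellulose synthases (CESA), of xylan that is assembled by glycosyltransferases and decorated with acetyl groups in the Golgi, and of lignin, whose monomers are coupled in the wall by laccases and peroxidases. Mutants that weaken this wall in rice are known as brittle culm mutants.

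The markers of the labelled organs bear on how these levels can be read. The flower markers MADS7 and MADS8, floral organ identity factors, averaged 13.47 and 13.66 log2 in flowers, with no other replicated group above 5.80 and 6.95. MADS4, MADS3 and MADS58 averaged 11.48, 10.75 and 12.27 in flowers, with no other replicated group above 7.19, 5.35 and 5.31. MADS16 was not confined to flowers: it averaged 14.09 there, 10.67 at the internode base and 9.00 to 11.84 over the groups other than flowers. The Rubisco small subunit gene RBCS read 8.10, 8.77 and 8.29 on the 3 internode base arrays and 7.35 to 8.38 on the 6 node arrays. On the internode top arrays RBCS read 14.98 to 15.25. The other green tissue markers differed less between the 2 ends of the internode. RCA averaged 12.76 at the internode base, 15.33 at its top, and 12.20 and 12.07 in nodes I and II. In the same order LFNR1 averaged 11.29, 13.09, 8.68 and 8.31. PSB28 averaged 10.94, 11.83, 8.28 and 8.67, and CAB2R 15.44, 15.58, 14.71 and 14.18. Of the markers of dividing cells, CYCB2;2 (0.00, 1.27 and 2.76) and MCM4 (0.29, 2.15 and 0.90) were at or near the floor at the internode base, and PCNA, the sliding clamp of DNA replication, read 5.55, 6.31 and 7.33 there, below every other replicated array, of which the lowest read 9.05. The markers LHCB3 and CYCB1-1 could not be assigned to a single gene and were not used. Arrays of one group correlated across probe sets at 0.906 to 0.934, and the sheath base pair at 0.888; probe sets are not independent replicates. The part of these tissue differences in the levels below was not tested, and since whole organ parts were extracted, fewer cells of a type and less RNA per cell cannot be told apart.

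The selected probe sets were among the brighter ones of the internode base. Their mean there ran from 8.03 to 15.23 log2, with a median of 11.70 and quartiles of 10.26 and 13.17. The distance to the next highest part had a median of 2.87 log2 (7.31-fold) and reached 7.34; it was at least 3 in 326 probe sets, at least 4 in 118, at least 5 in 42 and at least 6 in 9. Replicates at the internode base were close for most: the SD over the 3 arrays had a median of 0.246. In 636 of the 705 every internode base array lay above every other replicated array, and in 69 the arrays overlapped. Just inside the threshold stood LOC4334114, with a distance of 2.0001, and LOC4347386, with 2.0111, and just outside it LOC4335647, with 1.9989, and LOC4327947, with 1.9983, so the limit separates probe sets that are alike in this measure.

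**Figure D1:**
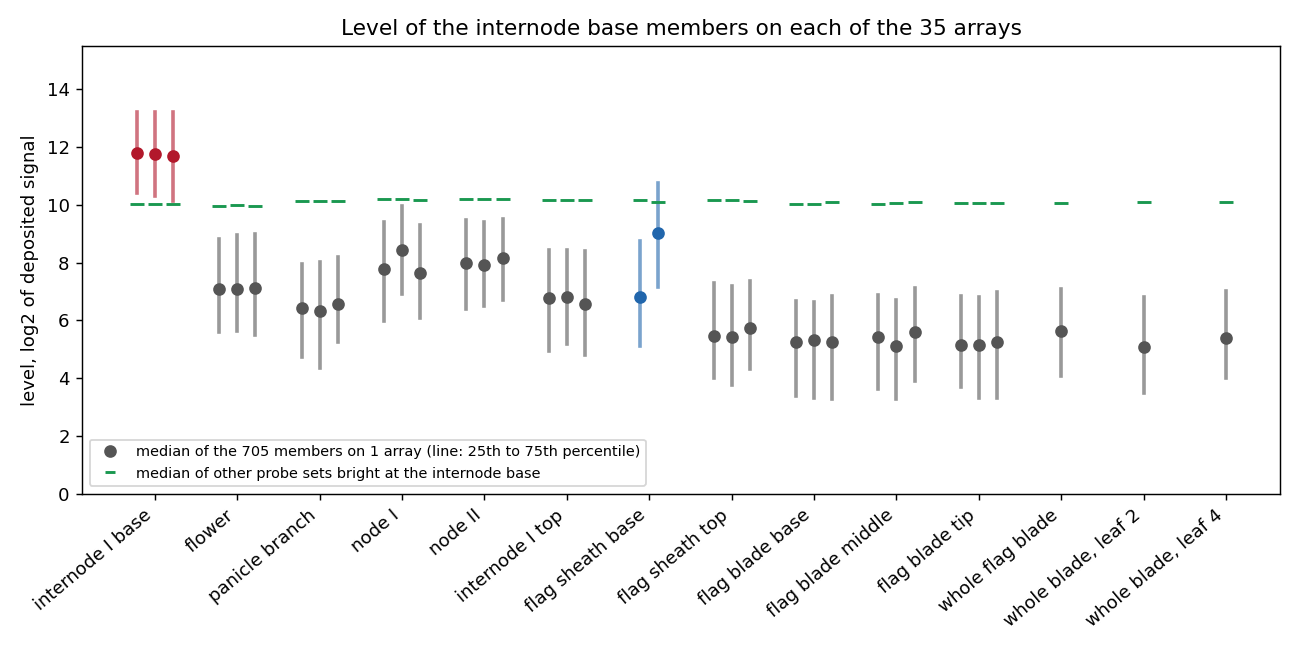
Median and quartiles of the log2 signal of the 705 selected probe sets on each of the 35 arrays, with the median of the other bright probe sets as a green dash. The internode base arrays stand at 11.68 to 11.80, the sheath base arrays at 6.82 and 9.02, and the flag blade arrays near 5, while the dash stays near 10 throughout.

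Array by array, the median of the selected probe sets was 11.80, 11.77 and 11.68 at the internode base and 6.78, 6.81 and 6.56 at the internode top. It was 7.77, 8.45 and 7.64 in node I and 7.99, 7.90 and 8.14 in node II. Flowers gave 7.07, 7.09 and 7.13 and panicle branches 6.41, 6.31 and 6.57. The arrays of sheath top (5.43 to 5.74) and flag blade (5.12 to 5.59 over base, middle and tip) were the lowest of the replicated ones. The sheath base pair did not read alike, at 6.82 on replicate 1 and 9.02 on replicate 2, and the second of these was the highest array outside the internode base.

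The parts next in rank to the internode base were mostly the sheath base and the nodes. The sheath base was next in 216 probe sets (30.6%), node II in 178 (25.2%), node I in 129 (18.3%) and the flower in 84 (11.9%), against 46 for the internode top, 21 for the panicle branch, 12 for the blade tip, 8 for the sheath top, 7 for the blade middle and 4 for the blade base. The median distance was smallest to the sheath base (3.46 log2, 11.0-fold), node II (3.55) and node I (3.64), followed by the flower (4.16), the internode top (4.67, 25.4-fold) and the panicle branch (5.02). It was largest to the sheath top (5.69) and the middle, base and tip of the flag blade (6.01, 6.15 and 6.27). At the blade tip 447 of the 705 averaged below 5.83 on the deposited scale, and in node II 120 did. That limit is the median of all values after quantile normalization.

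**Figure D2:**
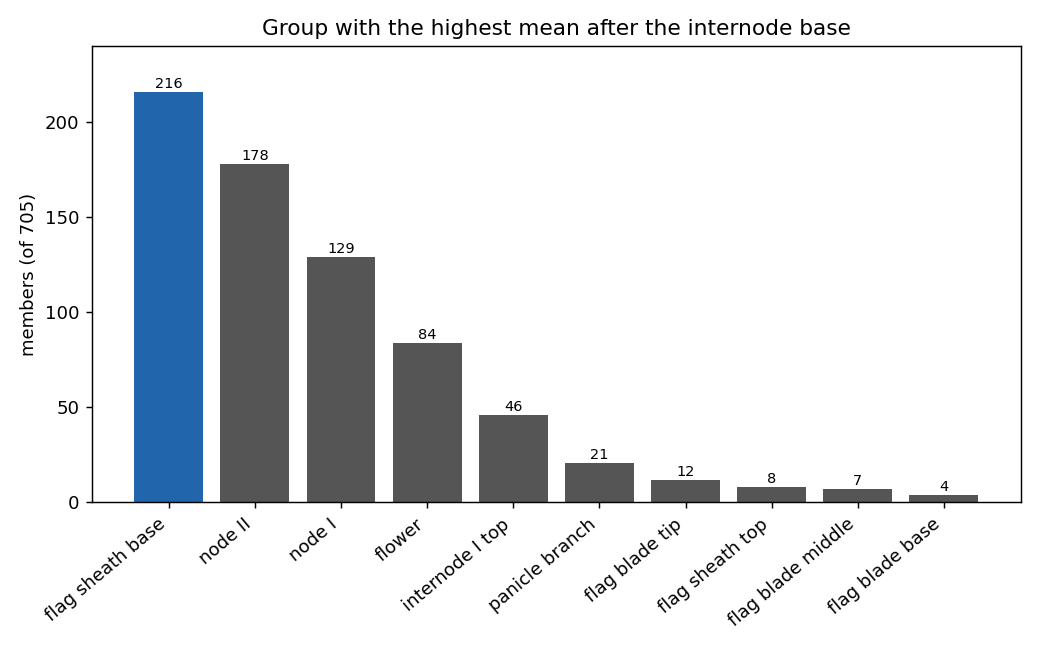
Number of the 705 selected probe sets for which each replicated part had the highest mean after the internode base. Sheath base (216), node II (178) and node I (129) lead, and the flag blade base (4) has the shortest bar.

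The cellulose synthases of the secondary wall were all selected, together with BC1, a COBRA-like protein of the wall whose loss gives brittle culms. CESA4, on chromosome 1, read 14.69, 14.82 and 14.85 on the internode base arrays and 8.06, 9.36 and 8.27 on the internode top arrays. Node I read 11.46, 11.93 and 11.14, the sheath base 10.06 and 11.38, and the sheath top 6.47, 6.48 and 6.32. A second CESA4 probe set gave the same picture, with 14.39, 14.36 and 14.50 at the internode base and a distance of 3.55 to the flower, the next part, against 3.28 to node I for the first. CESA7, on chromosome 10, read 14.28, 14.12 and 14.51 at the internode base, against 8.11, 8.90 and 8.64 at its top. CESA9, on chromosome 9, read 14.11, 13.97 and 14.24 at the internode base and 7.43, 7.95 and 6.31 at the top, and its distance of 4.32 was the longest of the 3 synthases. BC1, on chromosome 3, read 14.23, 14.28 and 14.35 at the internode base, against 10.34, 10.78 and 10.06 in node I, the next part, and 8.00, 8.61 and 8.77 at the internode top. For each of these 4 genes the internode base arrays lay above every other array, and their SD was at most 0.19 (n = 3).

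The 6 cellulose synthases of the primary wall, which every growing cell uses, were bright at the internode base too, but none met the 4-fold distance: CESA3 averaged 14.96 there, CESA1 14.68, CESA8 14.41, CESA6 14.31, CESA5 13.18 and CESA2 9.99.

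Xylan genes made up the next group. The 5 selected XOAT genes, XOAT2, XOAT6, XOAT10, XOAT11 and XOAT14, code for xylan O-acetyltransferases of the Golgi. XOAT6 read 14.58, 14.70 and 14.66 at the internode base and averaged 3.25 less in node I, the next part. XOAT11 read 14.57, 14.53 and 14.63 with one probe set and 11.79, 11.25 and 11.87 with another. XOAT10 read 14.11, 13.99 and 13.96 at the internode base, against 10.19 and 12.68 at the sheath base. XOAT14 was dimmer but more restricted, with 11.40, 10.51 and 10.96 at the internode base, against 6.67, 6.75 and 7.23 in node II and 4.83 and 8.86 at the sheath base. XOAT2 read 11.23, 11.13 and 11.70, against 8.93 and 8.83 at the sheath base. Genes of the xylan backbone were also selected: IRX14 (14.35, 14.22 and 14.42 at the internode base), IRX9L (14.03, 13.94 and 14.04) and GT43A (13.64, 13.61 and 13.87) of glycosyltransferase family 43 had distances of 2.69, 2.72 and 2.61, and GUT1 (13.69, 13.51 and 13.70) and OsGT47D (12.06, 12.29 and 12.44) of family 47 had 2.08 and 2.49. The distances of XOAT10 and XOAT2 were 2.59 and 2.48. The 5 backbone probe sets all had the sheath base as the next part, where OsGT47D read 7.72 and 11.83. A second, dimmer IRX9L probe set (9.90, 10.07 and 10.29) had the internode top.

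**Figure D3:**
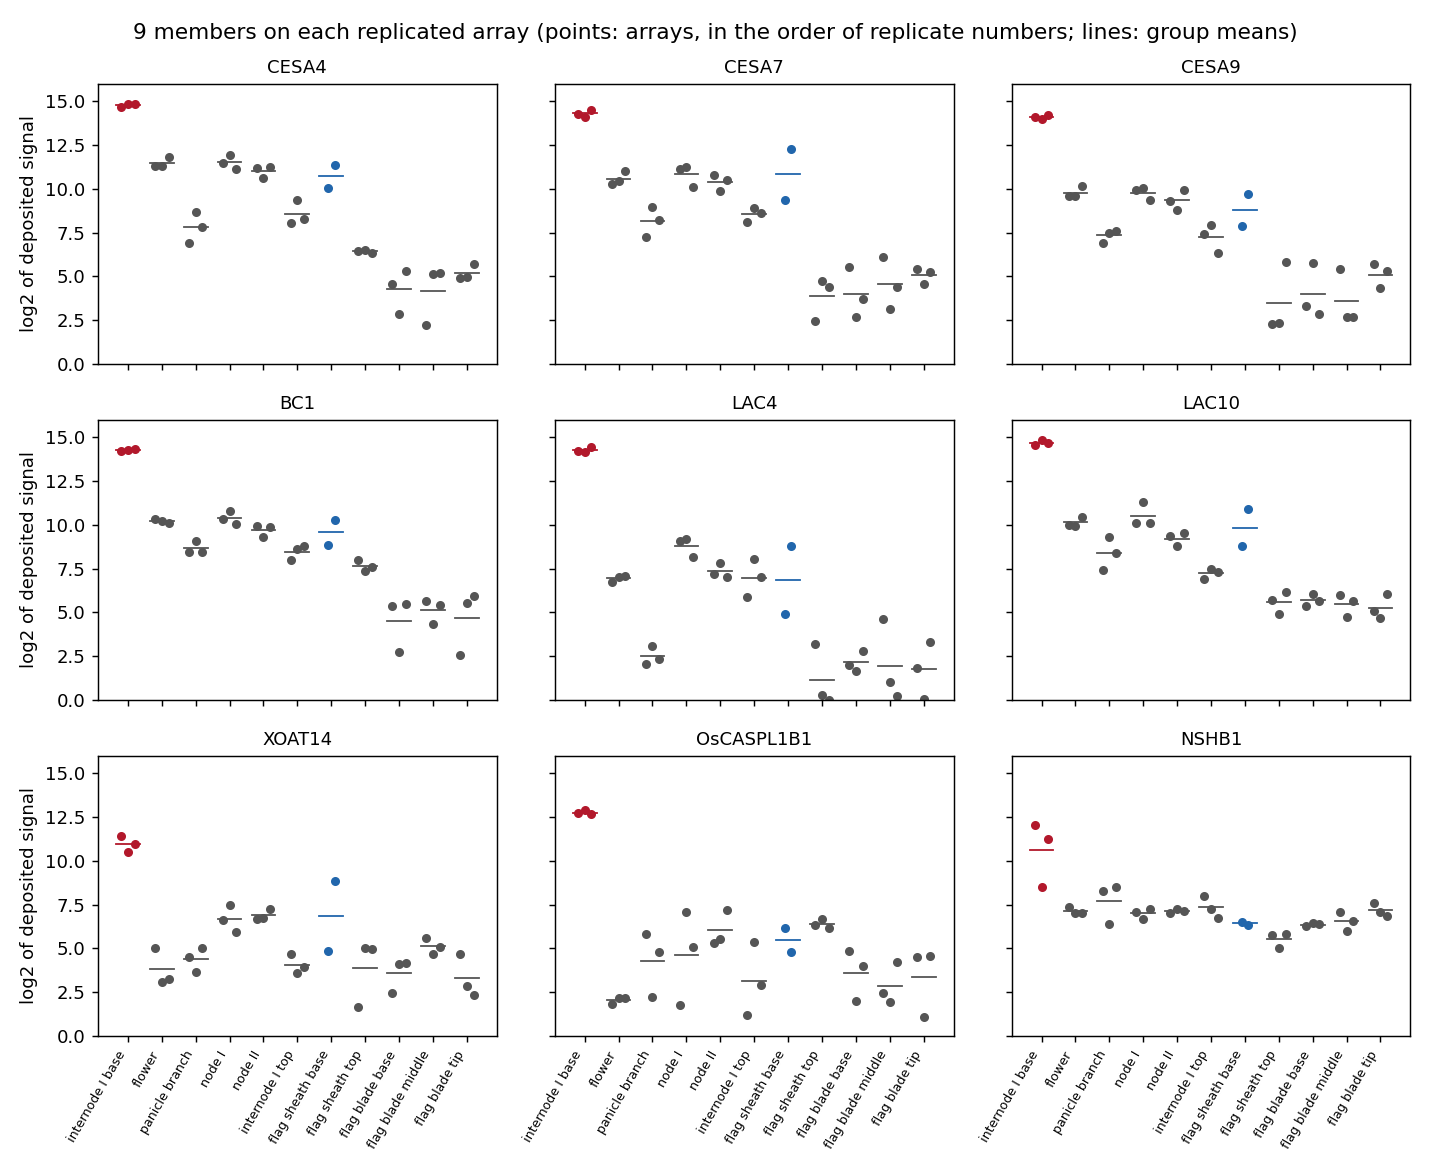
Log2 signal of 9 selected genes on every replicated array, by organ part, with a line at each group mean. The internode base arrays (red) are the highest in all panels, but in NSHB1 the lowest of the 3 (8.52) is level with the highest array elsewhere (8.51), and the 2 sheath base arrays (blue) lie apart in CESA7, LAC4 and XOAT14.

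Of the laccases, oxidases that couple lignin monomers, 3 were selected. LAC4, on chromosome 1, read 14.19, 14.14 and 14.44 at the internode base, against 9.10, 9.18 and 8.16 in node I, 5.87, 8.02 and 7.02 at the internode top, 4.91 and 8.78 at the sheath base and 2.03, 3.11 and 2.35 in the panicle branch. Its distance of 5.44 to the next part was the second longest of all named genes. LAC10 read 14.54, 14.83 and 14.68 at the internode base, against 10.08, 11.31 and 10.09 in node I and 6.90, 7.49 and 7.28 at the internode top. LAC3 was less even, with 12.99, 11.82 and 11.08 at the internode base, against 1.87, 5.63 and 2.51 at the internode top. The peroxidase PRX74 read 12.07, 12.00 and 11.36 at the internode base and 5.01, 1.61 and 1.16 at the internode top. On the sheath base arrays PRX74 read 5.52 and 13.36, so 1 of the 2 exceeded the internode base although their mean did not. R1C-Prx, another peroxidase, read 12.65, 11.95 and 13.02 at the internode base, against 9.55, 8.35 and 8.38 in node I.

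The widest distance of any named gene belonged to OsCASPL1B1, on chromosome 12, a CASP-like protein, related to the membrane proteins that mark where the Casparian strip forms in Arabidopsis roots. It read 12.73, 12.87 and 12.66 at the internode base and 6.34, 6.68 and 6.18 at the sheath top, the next part, a distance of 6.35. A further 3 CASP-like genes were selected: OsCASPL1U3 (9.42, 8.97 and 9.07 at the internode base), OsCASPL5B1 (12.42, 12.31 and 12.56) and OsCASPL1C2 (12.87, 12.52 and 12.59), with distances of 3.96, 3.75 and 3.26. PMEI8, an inhibitor of pectin methylesterase, read 11.90, 12.66 and 12.59 at the internode base, against 7.00, 7.86 and 7.71 in node II and 4.76 and 9.61 at the sheath base. OsCslF8, of the family that makes mixed-linkage glucan, read 9.84, 10.97 and 10.57, and the endoglucanase GLU10 read 12.42, 12.25 and 12.46, with distances of 3.54 and 3.29. At the sheath base OsCslF8 read 1.19 and 9.43.

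Enzymes that supply sugar nucleotides to the wall were selected as well. Sucrose synthases split sucrose into fructose and UDP-glucose, the substrate of cellulose synthase, and UDP-glucose dehydrogenase leads from there to the precursors of xylan. SUS1 was one of the brightest members, at 14.98, 15.00 and 14.99 at the internode base, against 13.04, 12.72 and 12.71 in node II and 8.05, 7.18 and 7.50 at the internode top; the sheath base arrays read 7.19 and 14.40. SUS5 (10.71, 11.70 and 11.08) and SUS6 (10.89, 11.22 and 10.64) were dimmer at the internode base, with distances of 3.09 and 3.39. UGD4, a UDP-glucose dehydrogenase, read 14.75, 14.79 and 14.63 at the internode base, against 11.08 and 14.30 at the sheath base. ACLA-2, a subunit of ATP citrate lyase, which makes cytosolic acetyl-CoA, read 13.96, 13.80 and 13.61, against 10.27 and 13.22 at the sheath base. AT9, a BAHD acyltransferase gene, read 14.24, 13.90 and 14.01, against 10.00 and 12.86 at the sheath base. In SUS1, UGD4, ACLA-2 and AT9, replicate 2 of the sheath base came close to the internode base and replicate 1 did not.

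Genes of the cytoskeleton and of signalling were selected too. Among them were 5 kinesins of the KIN14 family, microtubule motors. KIN14H read 13.61, 13.46 and 13.36 at the internode base, against 10.24, 10.76 and 10.18 in node I. KIN14B read 11.19, 11.45 and 11.40, against 9.31, 9.27 and 9.36 in node II. KIN14A, KIN14F and KIN14Q averaged 10.80, 11.16 and 9.61 at the internode base. KIN14F read 6.13 and 11.31 at the sheath base, so replicate 2 there exceeded the internode base mean. VLN1, a villin that bundles actin, read 11.79, 11.30 and 11.23, and the small GTPase ROP4 13.55, 13.52 and 13.29. CPK23, a calcium-dependent protein kinase, read 12.63, 13.22 and 13.23, against 9.29, 9.11 and 9.48 in flowers, and NEK4, a NIMA-related kinase, read 11.65, 11.83 and 11.68, with a distance of 3.84 to the sheath base.

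Few named regulators of transcription met the rule. HOS66, a KNOX homeobox gene, read 13.10, 13.13 and 12.99 at the internode base, against 9.45, 9.82 and 9.64 in node I. The CCCH zinc finger genes OsC3H9 (12.46, 11.75 and 11.42) and OsC3H39 (12.05, 11.38 and 11.23) had distances of 3.44 and 3.31. IAA20, an Aux/IAA repressor of auxin signalling, read 9.64, 8.19 and 11.02 at the internode base, with an SD of 1.41, and its lowest array lay below the highest array elsewhere (8.22). CLE202, which codes for a CLE peptide, read 11.44, 10.84 and 10.93, and AGO3, an argonaute of small RNA silencing, 9.67, 8.78 and 9.48. No member of the gibberellin list, of the expansin and xyloglucan endotransglucosylase list or of the cell division list was selected, out of 12, 30 and 60 genes on the array; of the genes placed below in chromosome order 2.62% were.

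Of the transport genes, RCN1, a half-size ABC transporter, read 11.69, 10.26 and 8.81 at the internode base, against 3.31 and 7.93 at the sheath base, and TIP3-1, an aquaporin of the tonoplast, read 11.08, 9.90 and 10.27, against 4.00, 6.30 and 7.00 in node I. HAK12, a potassium transporter, read 10.18, 10.22 and 10.16, against 8.19, 8.13 and 8.10 in node II. PHT3, placed with them by its symbol, read 10.09, 9.41 and 10.54 at the internode base, against 6.44 and 6.94 at the sheath base. HAK12 had close replicates at the internode base and in node II, and RCN1 had the widest scatter of these genes.

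**Figure D4:**
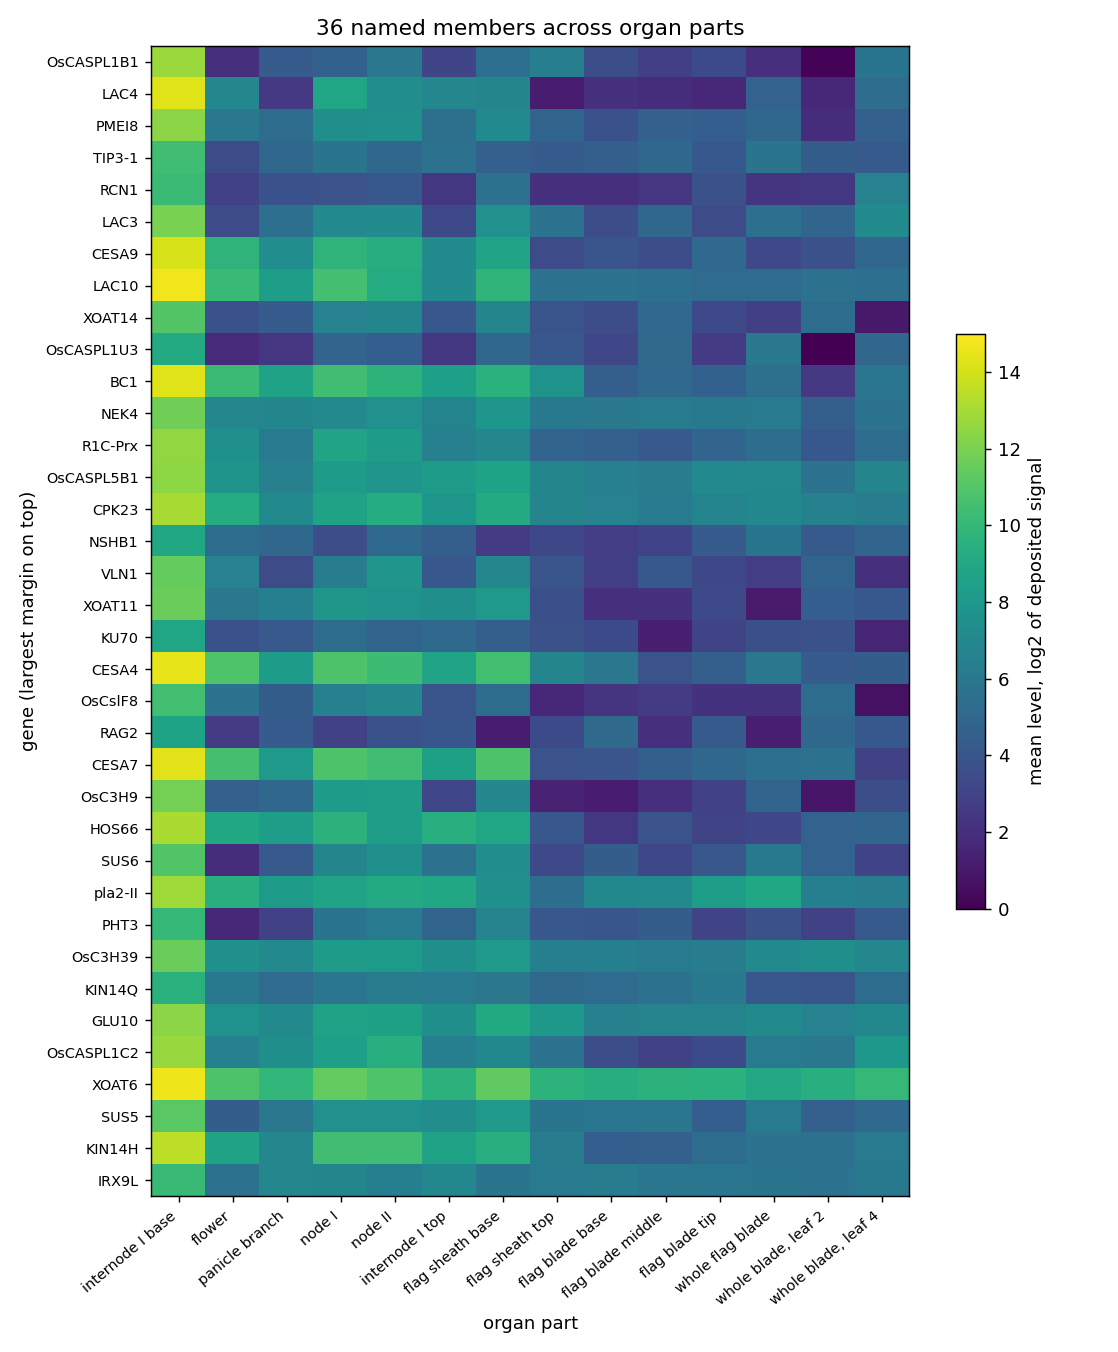
Mean log2 signal of 36 named genes in the 14 groups, with the internode base in the first column and the whole blades last, each gene at its selected probe set of widest distance. The first column is the brightest in every row.

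Some members stood apart in where they were next highest. AO-4 was selected with 4 probe sets, with internode base means of 8.88 to 10.68, and 3 of them had the sheath top as the next part, a part that was next in 8 of the 705. RAG2, a seed allergen of the amylase and trypsin inhibitor family, read 8.40, 8.93 and 8.71 at the internode base with one probe set, and a single flag blade tip array read 9.38 where the other 2 tip arrays read 2.45 and 0.87. Its second probe set repeated this, with 8.55 on that tip array against 7.60, 8.57 and 8.06 at the internode base. The patatin-like gene PLP2 read 10.58, 11.41 and 11.52 at the internode base, 9.25 and 8.09 at the sheath base and 7.98, 8.20 and 8.29 at the internode top, but 2.04, 2.34 and 2.53 in flowers and 2.47, 2.03 and 4.02 in panicle branches. KU70 read 8.77, 8.55 and 9.34 at the internode base with one probe set, at a distance of 3.56 to node I. Another KU70 probe set read 8.81, 8.35 and 8.69 there, at a distance of 2.84 to the internode top.

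The widest distance of all belonged to a gene without a name, LOC4324833 on chromosome 1, which read 14.20, 14.65 and 14.58 at the internode base and 8.18, 7.06 and 6.17 in node I. LOC4348445, on chromosome 10, read 14.47, 14.96 and 14.73 at the internode base, against 2.03 and 14.07 at the sheath base and 1.69, 9.84 and 5.85 in node I. Its distance of 6.67 is to the mean of a sheath base array near the floor and another almost as bright as the internode base. LOC4348445 would not have met the rule with sheath base replicate 2 alone, and many other members would not have either. The distance to replicate 2 alone was under 2 log2 in 259 members, and the distance to replicate 1 alone in 15.

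A small set varied between the internode base arrays themselves. In 42 members (5.96%) the SD there was over 1, and 38 of these (90.5%) were highest on replicate 1; among all 17090 probe sets that were bright at the internode base, 245 (1.43%) varied as much and 191 of those (78.0%) were highest on replicate 1. NSHB1, a non-symbiotic haemoglobin, read 12.01, 8.52 and 11.24 with one probe set, 11.02, 6.42 and 9.54 with another and 11.83, 8.68 and 11.02 with the third, so replicate 2 was the low one in all 3. RCN1 (11.69, 10.26 and 8.81) also belonged to this set. With the internode base averaged over 2 arrays instead of 3, the rule returned 687 to 725 probe sets.

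The 3 whole blade arrays took no part in the choice. The members read 5.63, 5.06 and 5.37 in the median on the flag leaf, leaf 2 and leaf 4 blade arrays. They lay at least 2 log2 below the internode base mean in 701, 704 and 700 of 705 (99.4%, 99.9% and 99.3%), whereas of the 17090 probe sets that were bright at the internode base 18.0%, 18.9% and 18.4% did, and the smallest distances of a member were 1.46, 1.51 and 1.10. Since parts of the flag blade were used in the choice, this is the same organ on further arrays rather than a new one, and with 1 array per blade there is no test.

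Other probe sets of the same genes had been judged by the rule and had not met it. Of these 71, from 62 genes, 46 averaged below 8 at the internode base and 25 reached 8 but not the distance of 2, with a median distance of 1.35 log2. Over all 71, 42 (59.2%) had their highest mean at the internode base, as had 16.0% of all rice probe sets. They read the same genes as the members and are given as a description.

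The selected genes were placed in the order of genes along the chromosomes of the RefSeq assembly ASM3414082v1, which was used for names and neighbours alone. Of 17738 genes with a position and a probe set, 465 (2.62%) were selected, and of the 1162 genes within 2 places of another selected one, 61 (5.25%) were selected themselves. These 61 genes form 28 groups, and 4 of the groups held 3 or more. XOAT14, XOAT11 and XOAT10 form one of them on chromosome 3, with another gene between XOAT14 and XOAT11. The group of 4, LOC4343812, LOC4343814, LOC4343816 and LOC4343817, is on chromosome 7, and both other groups of 3 are on chromosome 10. LAC4 and LOC4327501 on chromosome 1, and PRX74 and LOC4339223 on chromosome 5, are pairs. Close neighbours are often copies of one another, and probes may then read more than 1 of them. Of the members 132 (18.7%) are of the types _x_at or _s_at, whose probes can match several transcripts, against 17.4% of all probe sets. They include the bright probe sets of XOAT11 and IRX9L and those of SUS1, IRX14 and GUT1.

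The remaining comparisons leave out the internode base and ask how its probe sets behave between other parts of the plant. The rule limited how high each other part could be but used no difference between them. Levels above are on the log2 scale of the deposited signal; the differences that follow are log2 fold changes ± SE after quantile normalization, tested with limma on the 32 replicated arrays, and a probe set is called at a Benjamini-Hochberg adjusted p under 0.05 over all 38648 tested probe sets with a change of at least 2-fold. All 705 passed the filter on brightness, but they did so through the internode base, and many are dim in the parts compared. On the deposited scale 131 of the 705 averaged below 5.83 at the sheath base and 393 at the sheath top. At the base and tip of the flag blade 442 and 447 did. That limit is the median of all values after quantile normalization.

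Base against top of the flag leaf sheath asks whether the probe sets follow the same direction along a second organ that also grows from its base. Of the 705, 385 (54.6%) were higher at the sheath base than at the sheath top, where 8.53% of everything tested was, and 1 (0.142%) was lower, where 9.03% were. The median difference was 2.06 for the members and -0.05 for all tested. Some markers of other cell types moved with this comparison and others did not: MCM4 averaged 6.68 at the sheath base and 0.48 at the sheath top, CYCB2;2 7.49 and 1.77, PCNA 9.92 and 9.91, RBCS 12.42 and 14.49, RCA 13.93 and 14.99, LFNR1 10.66 and 12.95, PSB28 10.03 and 10.43 and CAB2R 14.80 and 14.93, and their part in the result was not tested. PRX74 had the largest of the named differences, 7.67 ± 1.51 (adjusted p = 0.000543). CESA7 read 9.34 and 12.30 at the sheath base, against 2.47, 4.71 and 4.40 at the sheath top, without overlap, a difference of 6.67 ± 0.84 (adjusted p = 4.35e-06). CESA9 read 7.86 and 9.72 at the sheath base, against 2.30, 2.34 and 5.84 at the sheath top (5.11 ± 0.90, adjusted p = 0.000184), and CESA4 differed by 4.17 ± 0.76 (adjusted p = 0.000257). BC1 missed the threshold, with 1.97 ± 0.75 (adjusted p = 0.053).

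In the same comparison LAC4 rose by 5.72 ± 1.13 (adjusted p = 0.000537) and LAC10 by 4.07 ± 0.56 (adjusted p = 1.34e-05), whereas LAC3 gave 1.87 ± 1.02 (adjusted p = 0.19). XOAT11 read 9.99 and 12.90 at the sheath base, against 6.81, 6.85 and 7.25 at the sheath top, and rose by 4.38 ± 0.44 (adjusted p = 3.1e-07); XOAT14, XOAT10, XOAT6 and XOAT2 rose by 2.99, 2.27, 1.69 and 1.13. Of the backbone genes, OsGT47D rose by 4.29 ± 0.82, GUT1 by 1.35 ± 0.16 and GT43A by 1.32 ± 0.33, and IRX14, at 0.80 ± 0.23 (adjusted p = 0.0116), stayed under 2-fold. UGD4 rose by 3.77 ± 0.61, SUS1 by 3.90 ± 1.09, the kinesin KIN14H by 2.96 ± 0.68 and HOS66 by 4.60 ± 1.08. OsCASPL1B1, the named gene of widest distance, gave -0.72 ± 1.32 (adjusted p = 0.753) and was not called. In all, 38 of the 62 named genes were called higher at the sheath base.

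The number of members called along the sheath, and the size of their differences, depended strongly on 1 array. Of the 705 members 558 were higher on sheath base replicate 2 than on replicate 1, with a median difference of 1.65 (3.13-fold), and 450 (63.8%) by at least 1 log2, whereas the other 16385 bright probe sets had a median of -0.22 and 12.6% of them differed so. Replicate 2 read lower in 4 of 5 green tissue markers, with RBCS at 12.02 on replicate 2 and 12.82 on replicate 1, RCA, Rubisco activase, at 13.44 and 14.43, LFNR1 at 10.11 and 11.21 and CAB2R at 14.69 and 14.92, while PSB28 read 10.08 and 9.99; of the dividing cell markers CYCB2;2 read 7.86 on replicate 2 and 7.11 on replicate 1, MCM4 6.75 and 6.60, and PCNA 9.68 and 10.17. Their part in the result was not tested. Without replicate 2 the sheath base is a single array, which is assumed to vary like the arrays of the other groups, and the p-values rest on that. In this fit 142 members (20.1%) were called higher and 1 lower, against 3.13% and 4.21% of all tested, with a median of 1.10 for members and 0.05 for all tested, and 137 of the 142 were among the 385. Without replicate 1, 451 (64.0%) were called higher, against 11.8% of all tested. A fit of the sheath arrays alone, with few degrees of freedom, called 44 members and 348 of all tested (0.9%) higher; CESA4 was among those 44, and CESA7, CESA9 and XOAT11 were not.

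Of the 38 named genes called higher, 13 were also called with sheath base replicate 1 as the single array, under the same assumption. These held CESA7 (5.24 without replicate 2), CESA9 (4.19), CESA4 (3.52), LAC10 (3.05), XOAT11 (2.96), XOAT10, XOAT2, GUT1, UGD4, R1C-Prx, SK3, CPK23 and KIN14H. XOAT11 kept the call by its brighter probe set alone, which is of the type _s_at. Its dimmer selected probe set, called at 4.36 with both arrays, gave 2.81 without replicate 2 and lost the call. The calls lost were of unlike kinds. LAC4 (3.97, adjusted p = 0.0558), PRX74 (3.95, adjusted p = 0.0876), HOS66 (3.34), OsC3H9 (3.00) and OsGT47D (2.32) gave large differences without replicate 2 that missed the threshold. SUS6 gave 1.93, KIN14F 1.88, XOAT14 1.17, SUS5 1.05, XOAT6 0.67, GT43A 0.46 and SUS1 0.14 (adjusted p = 0.919). OsCslF8, at 3.66 ± 1.21 (adjusted p = 0.0256) with both arrays, gave -0.22 without replicate 2 (adjusted p = 0.915).

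**Figure D5:**
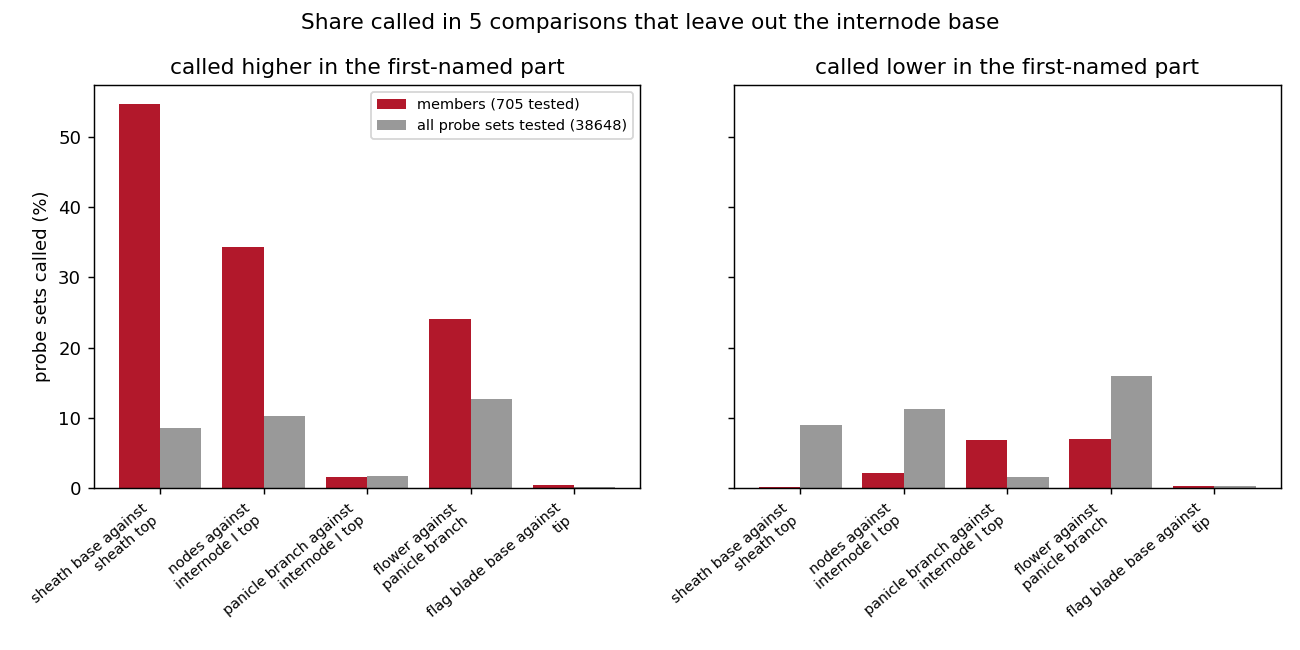
Percent of the 705 selected probe sets and of all 38648 tested probe sets called higher (left panel) and lower (right panel) in 5 comparisons that leave out the internode base. The members exceed the background most for the sheath base (54.6% against 8.53% higher) and the nodes (34.3% against 10.2%), and along the flag blade the shares are 0.426% and 0.186%.

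Nodes I and II, where leaf, stem and bud vasculature join, were set against the top of internode I. Of the members 242 (34.3%) were higher in the nodes, against 10.2% of all tested, and 15 (2.13%) were lower, against 11.3%, with medians of 0.93 and 0.03. PRX74 rose by 5.60 ± 1.17 (adjusted p = 0.000561), OsC3H9 by 5.28 ± 1.00 (adjusted p = 0.000201), SUS1 by 4.85 ± 0.85 (adjusted p = 8.01e-05) and KIN14B by 4.48 ± 0.82 (adjusted p = 0.000132). LAC3, which was not called along the sheath, rose by 3.97 ± 0.79 (adjusted p = 0.000354) and LAC10 by 2.61 ± 0.43, while LAC4 gave 1.04 ± 0.87 (adjusted p = 0.379). CESA4 rose by 2.72 ± 0.59 (adjusted p = 0.000772), CESA9 by 2.28 ± 0.70 (adjusted p = 0.0126) and CESA7 by 2.06 ± 0.65 (adjusted p = 0.0148). The call of CESA9 was lost without internode top replicate 3 and that of CESA7 without replicate 1. BC1 passed at 1.56 ± 0.58 (adjusted p = 0.0385), a call lost under 8 of the other settings tried.

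Other named genes higher in the nodes were VLN1 (3.09 ± 0.78), OsCslF8 (2.95 ± 0.93), XOAT14 (2.80 ± 0.71), OsCASPL1C2 (2.46 ± 0.55), AT9 (2.38 ± 0.38), UGD4 (2.23 ± 0.47) and XOAT6 (1.52 ± 0.28). The call of OsCslF8 was lost without internode top replicate 1. XOAT11, with 0.39 ± 0.34, was not called. AO-4 was the one named gene lower in the nodes, by 2 of its probe sets, with -1.48 ± 0.30 (adjusted p = 0.000415) and -1.30 ± 0.42 (adjusted p = 0.0184). Of the genes without a name, LOC4340745 (5.21 ± 0.66) and LOC4338518 (4.30 ± 0.40) were among the largest rises. RBCS moved with this comparison, at 7.35 to 8.38 in the nodes and 14.98 to 15.25 at the internode top, and its part was not tested.

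The panicle branch, the stem-like axis within the panicle, was set against the internode top that lies below it. Few probe sets differed: 11 members (1.56%) were higher in the panicle branch, against 1.79% of all tested, and 48 (6.81%) were lower, against 1.64%. The medians were -0.38 for members and -0.02 for all tested. PLP2 fell the most of the named genes, at -5.64 ± 0.40 (adjusted p = 1.02e-08), followed by LAC4 at -4.76 ± 1.01 (adjusted p = 0.00639), XOAT11 at -1.99 ± 0.39 (adjusted p = 0.00391), OsCASPL5B1 at -1.88 ± 0.32 (adjusted p = 0.000953), SK3 at -1.59 ± 0.37 and mdr17, an ABC transporter gene, at -1.41 ± 0.38; the calls of SK3 and mdr17 were lost without panicle branch replicate 2, without internode top replicate 2 and in the arrays compared alone. None of the 3 CESA genes was called, and CESA4 read 6.89, 8.65 and 7.83 in panicle branches, against 8.06, 9.36 and 8.27 at the internode top, with overlap. The rises were of genes without a name, led by LOC4340745 (3.80 ± 0.77, adjusted p = 0.00445).

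Flowers before anthesis were set against the panicle branch that bears them. Here 170 members (24.1%) were higher in flowers, against 12.7% of all tested, and 49 (6.95%) were lower, against 15.9%, with medians of 0.50 and -0.18. CESA4 read 11.32, 11.29 and 11.81 in flowers, against 6.89, 8.65 and 7.83 in panicle branches, without overlap, and rose by 3.86 ± 0.68 (adjusted p = 6.7e-05). CESA7 and CESA9 rose by 2.58 each (SE 0.75 and 0.80, adjusted p = 0.00716 and 0.0119), and BC1 gave 1.66 ± 0.67 (adjusted p = 0.0501). PRX74 rose by 5.04 ± 1.35, LAC4 by 4.37 ± 1.01, KIN14B by 4.00 ± 0.95, VLN1 by 3.02 ± 0.90, CPK23 by 2.27 ± 0.35 and LAC10 by 1.88 ± 0.50. LAC3 read 5.20, 2.61 and 2.42 in flowers, against 4.98, 4.57 and 6.91 in panicle branches, mostly dim and with overlap, and was called at -2.30 ± 0.92 (adjusted p = 0.0469). Of the 3 NSHB1 probe sets 1 was called, at -1.68 ± 0.51 (adjusted p = 0.0096), a call lost without panicle branch replicate 3 and on the deposited scale, and the others gave -0.93 (adjusted p = 0.2) and 0.06 (adjusted p = 0.97). SUS5 (-1.62), the dim probe set of IRX9L (-1.52), mdr17 (-1.48) and CLE202 (-1.45) were also called lower, while the bright IRX9L probe set gave 0.24 (adjusted p = 0.126). The calls of LAC3, SUS5, IRX9L and CLE202 were lost under several of the other settings, and that of mdr17 without panicle branch replicate 3 and in the arrays compared alone.

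Along the flag leaf blade, base against tip, 3 members (0.426%) were higher at the base, against 0.186% of all tested, and 2 (0.284%) were lower, against 0.282%. The medians were -0.11 for members and 0.00 for all tested. No named gene was called by limma. At an unadjusted p under 0.05, 29 members (4.11%) were higher and 49 (6.95%) lower at the blade base, against 4.84% and 4.59% of all tested. Most members were dim at both ends of the blade, where few of all tested probe sets were called as well. The part of this dimness was not tested, and no difference between blade and sheath was tested.

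The pathway lists, built from gene symbols, show how far members stood for their families. In the list of secondary wall cellulose genes 4 of 5 were higher at the sheath base (median 4.17) and 4 of 5 in the nodes (median 2.06). The list holds CESA4, CESA7, CESA9, BC1 and, through a shared synonym, LOC4347540, which the gene table also calls bHLH081; this gene is no member, was called higher at the sheath base (2.86), where BC1 was not, and lower in the nodes (-1.91). Of the 6 primary wall cellulose genes, with no member, 5 were higher at the sheath base and 5 in the nodes, with medians of 2.53 and 1.46. Of 11 xylan genes, 7 of them selected, 8 were higher at the sheath base and 5 in the nodes, with medians of 1.69 and 0.55. All tested probe sets had medians of -0.05 and 0.03 in these comparisons. Without sheath base replicate 2, the medians at the sheath base were 3.52, 1.30 and 0.67 for these lists, against 0.05 for all tested.

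The lignin list was mixed. Among its 26 genes, which include LAC3, LAC4 and LAC10, 6 were higher and 2 lower at the sheath base (median 0.74) and 4 higher and 4 lower in the nodes (median -0.10). The non-member laccase LAC7 gave -5.51 in the nodes, where the members LAC3 and LAC10 rose; LAC7 averaged 7.19 at the internode base and 13.12 at its top. Of 22 CASP-like genes 3 were higher and 5 lower at the sheath base, and 5 were higher and 2 lower in the nodes. Of 73 cytoskeleton genes, 6 of them selected, 37 were higher at the sheath base, and 24 were higher and 1 lower in the nodes. Of 31 genes of sucrose and sugar transport 10 were higher and 3 lower at the sheath base. Of 57 cell division genes, 14 were higher and 2 lower at the sheath base and 8 higher and 2 lower in the nodes, although none is a member. The 10 photosynthesis genes ran the other way, with 6 lower at the sheath base (median -1.10) and 8 lower in the nodes (median -3.22). Of 245 transcription factor genes, 37 were higher and 23 lower at the sheath base, and 56 higher and 16 lower in the nodes. Of 98 transporter genes 11 were higher and 19 lower at the sheath base. Of 26 expansin and xyloglucan endotransglucosylase genes, none of them selected, 6 were higher and 3 lower there. In the nodes 10 of these were higher and 3 lower. Of all tested, 8.53% were higher and 9.03% lower at the sheath base, and 10.2% higher and 11.3% lower in the nodes. Without sheath base replicate 2 the medians along the sheath were 0.77 for the cytoskeleton, 0.46 for sucrose and sugar transport and 0.34 for cell division. They were 0.13 for transcription factors, -0.10 for transporters and -0.07 for expansins, against 0.05 for all tested. Fewer genes of each of these lists, and of all tested, were then called higher.

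In flowers against panicle branches, 3 of the 5 secondary wall cellulose genes were higher and 1, the non-member LOC4347540, was lower at -3.09. Of the 6 primary wall cellulose genes 4 were higher in flowers, and 3 were lower in panicle branches than at the internode top. The cytoskeleton list had 32 genes higher and 5 lower in flowers, and the expansin list 16 higher and 3 lower. Of the 11 xylan genes 2 were higher in flowers, and of the 26 lignin genes 6 were higher and 6 lower. Of all tested, 12.7% were higher and 15.9% lower in flowers, and 1.64% were lower in panicle branches than at the internode top. Of the 22 CASP-like genes 2 were higher and 8 lower in flowers, where OsCASPL5B1 rose by 1.09 ± 0.32 (adjusted p = 0.00776), a call lost with log2(signal + 16) and without flower replicate 2 or 3.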

How the data were processed

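Deposited signal intensity (linear, 0.0536 to 66643) of 35 1-colour arrays was used. Each array's trimmed mean, with 2% left out at each end, was 500.06 to 500.08, so the deposited intensity had been brought to a common level; which software did so is not stated in the labels, and no detection calls were used. Samples were grouped by the labels. Values were floored at 1 and taken to log2 (Python 3.11.15, pandas 2.3.3, numpy 2.4.6), and the rule was applied to these; 123 control probe sets were left out.

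For the tests, array medians of 5.39 to 6.36 led to quantile normalization over 35 arrays. The 38648 probe sets that reached 5.83, the overall median, on 3 or more of the 32 replicated arrays were fitted with limma 3.58.1 (lmFit, eBayes) in R 4.3.3, with 1 mean per group, 21 residual and 1.65 prior degrees of freedom. The steps were tested on simulated data. Whole blades were kept out of the fit.

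Genes were named from the platform annotation (22531 probe sets, 22436 with 1 gene, 95 with several, from which none was named) and updated by gene number; no sequence or coordinate is given. The members, lists and tests were chosen with earlier results of these data known. By rule the text names the 25 named members of widest distance, up to 6 per list, up to 4 called per comparison and direction, and those at the threshold; other genes described were picked once their values were seen. All lists rest on symbols alone, and C3H1, planned for the lignin list, was left out because it also matches zinc fingers. Same-numbered arrays of different groups showed no strong shared deviation (median correlation 0.008 over 155 pairs, 3 over 0.1). Differently numbered arrays had a median of -0.005 over 310 pairs, 1 over 0.1. With so few arrays per group this cannot exclude that the numbers pair samples, and the main fit used no pairing. Alternatives were the deposited scale, equal array medians, log2(signal + 16), no filter on dim probe sets, the compared arrays alone, the replicate block, each replicate left out, other margins and, added after seeing the data, leaving out the types _x_at and _s_at.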

Additional observations from a re-analysis of the deposited data

How the results depend on the processing

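The rule returned 711 probe sets after quantile normalization (655 shared with the 705), 621 with equal array medians (597 shared), 671 with log2(signal + 16) and 700 with group medians. It returned 450 to 759 with 1 array left out, both ends set by the sheath base: 450 (446 shared) without its replicate 1 and 759 (690 shared) without its replicate 2. A distance of 1.5 gave 1019 and of 2.5 gave 475, and 573 were left without probe sets of the types _x_at and _s_at.

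Of 307 counts under the alternatives, 271 stayed within 1.5 times. The compared arrays alone leave few degrees of freedom. With them 44 members were called higher at the sheath base (348 higher and 775 lower over all probe sets). In the nodes 25 members were lower (4182 over all), and in the panicle branch 3 were higher and 27 lower (209 and 185 over all). At the blade base 0 and 0 were called (0 and 2 over all). At an unadjusted p under 0.05 in limma, 21 and 37 members and 1595 and 1634 of all were higher and lower there. With 1 array left out, members higher at the sheath base ranged from 142 to 451 and lower from 0 to 2, and over all probe sets from 1208 to 4570 and from 1629 to 5309. Members higher in the panicle branch ranged from 7 to 12 and lower from 36 to 55, and over all probe sets from 464 to 689 and from 423 to 713. At the blade base the ranges were 1 to 4 members higher and 0 to 5 lower, and 26 to 117 and 69 to 123 over all. With log2(signal + 16) 0 members were lower at the sheath base (4 at an unadjusted p under 0.05 in limma), against 3571 over all. At the blade base 0 members were higher and 1 lower (20 and 30 unadjusted), against 63 and 149 over all. Without the filter 1 member was higher and 1 lower at the blade base, with 45 higher and 87 lower over all. Without the _x_at and _s_at types 0 members were lower there (94 over all), and with equal array medians 2 were higher and 3 lower (55 and 128 over all). On the deposited scale 31 members (4.4%) were lower in flowers than in panicle branches, against 12.7% of all tested. The median of all probe sets was -0.07 there in place of -0.18. With the replicate block 383 members (54.3%) were higher and 1 (0.142%) lower at the sheath base, against 8.67% and 9.13% of all tested. In the nodes 243 (34.5%) and 16 (2.27%) were, against 10.2% and 11.3%. In the panicle branch 11 (1.56%) and 49 (6.95%) were, against 1.8% and 1.64%. In flowers 171 (24.3%) and 49 (6.95%) were, against 12.7% and 15.9%. At the blade base 3 (0.426%) and 2 (0.284%) were, against 0.202% and 0.29%.

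For 127 calls of named genes 1702 values were computed: 1473 kept the call, 228 lost it and 1 (OsCslF8 along the sheath) turned, from -0.22 without sheath base replicate 2 to 7.54 without replicate 1. Calls lost numbered 56 with the compared arrays alone, 34 without sheath base replicate 2, 12 without the filter, 8 with log2(signal + 16), 7 on the deposited scale, 3 with equal medians and 3 with the replicate block; the causes were not tested.

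No detection calls were used, so low signals have no order and the distance of members near the floor elsewhere is a description. The sheath base rests on 2 arrays that differ.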
